A study of Mus musculus with 6 samples.

Results

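The transcriptome described here is that of the unchallenged wild type mouse colon epithelium, read from total RNA of the cells that an EDTA and DTT wash releases from the tissue. Its members were the 3 libraries whose genotype label is wild type, out of 6 libraries in the series. The other libraries carry a Lingo2-/- genotype and were left out of every value below. The donor mice were aged 2 months and kept in naive conditions, and RNA was taken within 1 hour of harvest. The labels number the libraries as replicates but do not say that each came from its own animal, so the SDs below cover differences among these 3 libraries only, technical ones included.

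The colon epithelium is a single sheet of cells folded into crypts. Stem cells at the crypt base supply absorptive colonocytes, which recover water, salt and short-chain fatty acids, and goblet cells, which secrete the mucus that keeps bacteria away from the surface. Enteroendocrine cells, which release hormones, and tuft cells, which sense luminal signals, are scattered among them. Intraepithelial lymphocytes sit between the epithelial cells and leave the tissue in the same wash.

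Gene reads numbered 25010618, 28029583 and 25151356 in replicates 1, 2 and 3. Mitochondrial genes took 48.4%, 46.8% and 45.3% of them. The large mitochondrial ribosomal RNA, mt-Rnr2, alone took 30.03% to 32.58% of all gene reads. Cytoplasmic ribosomal RNA and the genes that lie on its repeat took 1.405% to 1.819%. These genes, genes with under 200 bases of exon and gene rows without annotation were set aside, which kept 12491002, 14379758 and 13239872 reads on 38864 genes. Levels are given in TPM, a count divided by the gene's exon length and scaled so that the kept genes of each library sum to the same total, which allows genes to be compared with each other. A gene was taken as detected at 1 TPM or more in every library. By that rule 15779 genes were detected and 13182 had no read in any library. Of the 21510 protein-coding genes kept 12626 were detected, which is the share to set beside the counts for gene lists below. Over the kept genes the median level was 0.418 TPM, and over the detected genes it was 11.7 TPM.

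The most abundant transcripts per length were small structured RNAs of the nuclear transcription and RNA processing machinery. Rn7sk encodes 7SK RNA, which holds the elongation factor P-TEFb inactive (chr9:78175303-78175633, minus strand, GRCm38). It stood at 270879, 281067 and 326092 TPM in replicates 1, 2 and 3 (292679 ± 29381, SD, n = 3), or 29.3% of the summed TPM (the per-length total). The level was highest in replicate 3, and the other libraries lay close together. Rpph1, the RNA subunit of RNase P, which trims precursor tRNAs (chr14:50807449-50807767, minus strand), followed at 66154, 62724 and 65629 TPM (64835 ± 1847). No other gene averaged 2% of the total. The first 100 bases of each transcript are shown because these RNAs set the scale of every other level, as GENCODE M21 gives them in lower case DNA letters, from chr9:78175534-78175633 and chr14:50807668-50807767, both on the minus strand.
Rn7sk: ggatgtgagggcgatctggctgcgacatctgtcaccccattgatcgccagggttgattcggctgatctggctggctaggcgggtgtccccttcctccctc
Rpph1: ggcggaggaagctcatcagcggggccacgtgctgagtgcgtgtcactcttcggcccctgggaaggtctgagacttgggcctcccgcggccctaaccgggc

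Small structured noncoding RNAs together held 37.0% ± 3.20 of the per-length total, against 5.08% ± 0.663 of the kept reads, since they are short. Protein-coding genes held 58.8% ± 3.32 of the per-length total and 90.1% ± 1.14 of the reads. Rn7sk was also first by reads, with 4.06% of them. Malat1, a nuclear long noncoding RNA, was second by reads and stood at 7150, 7794 and 8444 TPM (7796 ± 647). Rmrp, the RNA of the RNase MRP complex, stood at 2864, 3094 and 3980 TPM, and the small Cajal body RNA Gm22009 at 1640, 2600 and 2710 TPM. All 3 were lowest in replicate 1 and highest in replicate 3. The lincRNA Gm3054 (chr5:137154029-137166070, minus strand) stood at 4988, 3920 and 5098 TPM from a model of only 265 exon bases. The RefSeq start of Muc3 lies within its 5′ end, so reads of that gene may be counted on it and its level is uncertain.

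**Figure D1:**
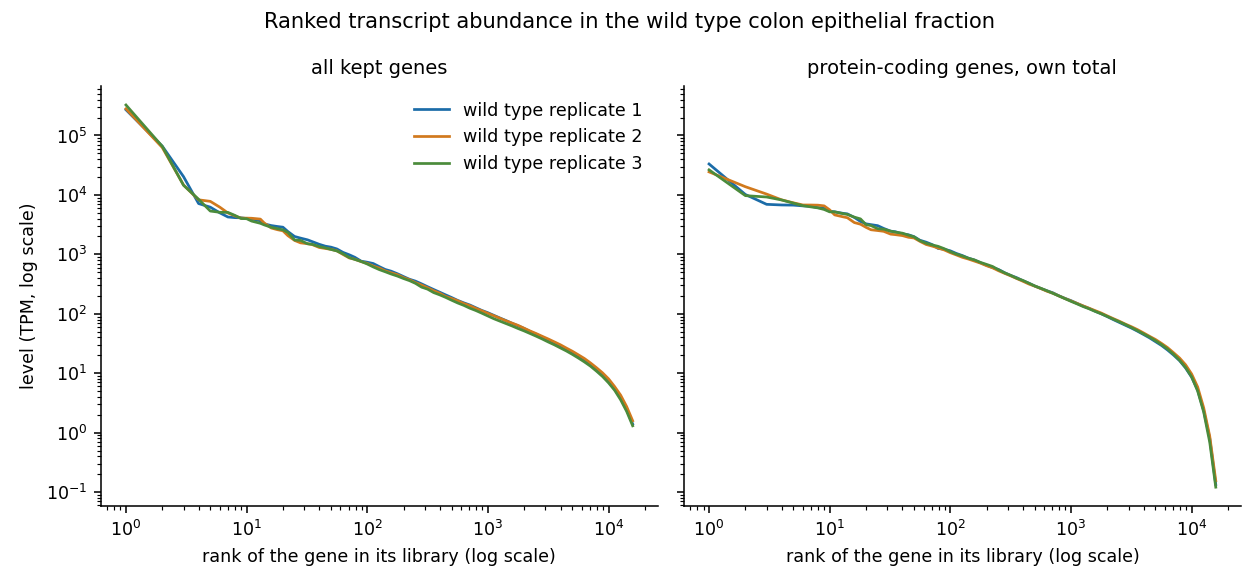
Level in TPM (log scale) against rank within each library (log scale), for all kept genes and for protein-coding genes scaled to their own total. Colours are the 3 wild type libraries. The curves for all kept genes start at 270879 to 326092 TPM with Rn7sk, and the curves for protein-coding genes start far lower with Lypd8.

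Because 1 RNA held so much of the total, the concentration of the transcriptome depended on what was counted. With all kept genes 72, 76 and 36 genes made up 50% of the per-length total in replicates 1, 2 and 3, the lowest number falling in the library with the most Rn7sk. Among protein-coding genes alone 518, 599 and 534 genes did so (550.3 ± 42.9). The 10 leading protein-coding genes held 9.26% ± 0.350 of the protein-coding total, the leading 100 held 27.4% ± 0.712 and the leading 1000 held 59.3% ± 1.15. In absolute terms 868 genes reached 100 TPM in every library and 58 reached 1000 TPM, 51 of them protein-coding.

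The head of the protein-coding ranking held colonocyte products (Lypd8 and Car1), goblet cell products (Guca2a and Muc2), Mptx1 and Cyp2c55. Lypd8, a colonic surface protein that binds flagellated bacteria (chr11:58379043-58390728, plus strand), was first in each library, at 20316, 14692 and 14548 TPM (16519 ± 3289). Car1, a cytosolic carbonic anhydrase, stood at 3670, 8273 and 5078 TPM (5673 ± 2358), and Mptx1, a mucosal pentraxin, at 6227, 6217 and 2764 TPM (5069 ± 1996). Lypd8 lay above both in every library without overlap. The ranges of Car1 and Mptx1 overlapped, so their order was not resolved. Guca2a, which encodes guanylin, the ligand of guanylate cyclase C, stood at 4252, 4075 and 5354 TPM (4560 ± 693), and the gel-forming mucin Muc2 at 4149, 4969 and 4003 TPM (4374 ± 520). Cyp2c55, a cytochrome P450 of the colon, varied least of these at 4124, 4434 and 4523 TPM (4361 ± 210).

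Behind these came a mix of secreted products, cytoskeleton and translation. The translation elongation factor Eef1a1 averaged 3780 ± 277 TPM, 1810065E05Rik 3532 ± 594 TPM and the actin Actb 3411 ± 304 TPM. Agr2, a disulfide isomerase needed for mucin folding, averaged 3281 ± 666 TPM and the mucus lectin Zg16 3132 ± 986 TPM. Next were the keratin Krt8 (2757 ± 212 TPM), the trefoil peptide Tff3 (2683 ± 678 TPM) and the galectin Lgals4 (2569 ± 83.3 TPM). The membrane mucin Muc3 averaged 2503 ± 487 TPM and the ribosomal protein gene Rplp1 2438 ± 120 TPM. Spink4, a secreted Kazal-type protein of goblet cells, averaged 2380 ± 344 TPM and Clca1, a mucus metalloprotease, 2187 ± 862 TPM. The MHC class I light chain B2m averaged 1898 ± 196 TPM, the haemoglobin chain Hbb-bs 1874 ± 376 TPM, Tspan1 1766 ± 266 TPM, Plac8 1659 ± 117 TPM, the membrane mucin Muc13 1612 ± 236 TPM and Phgr1 1579 ± 143 TPM.

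**Figure D2:**
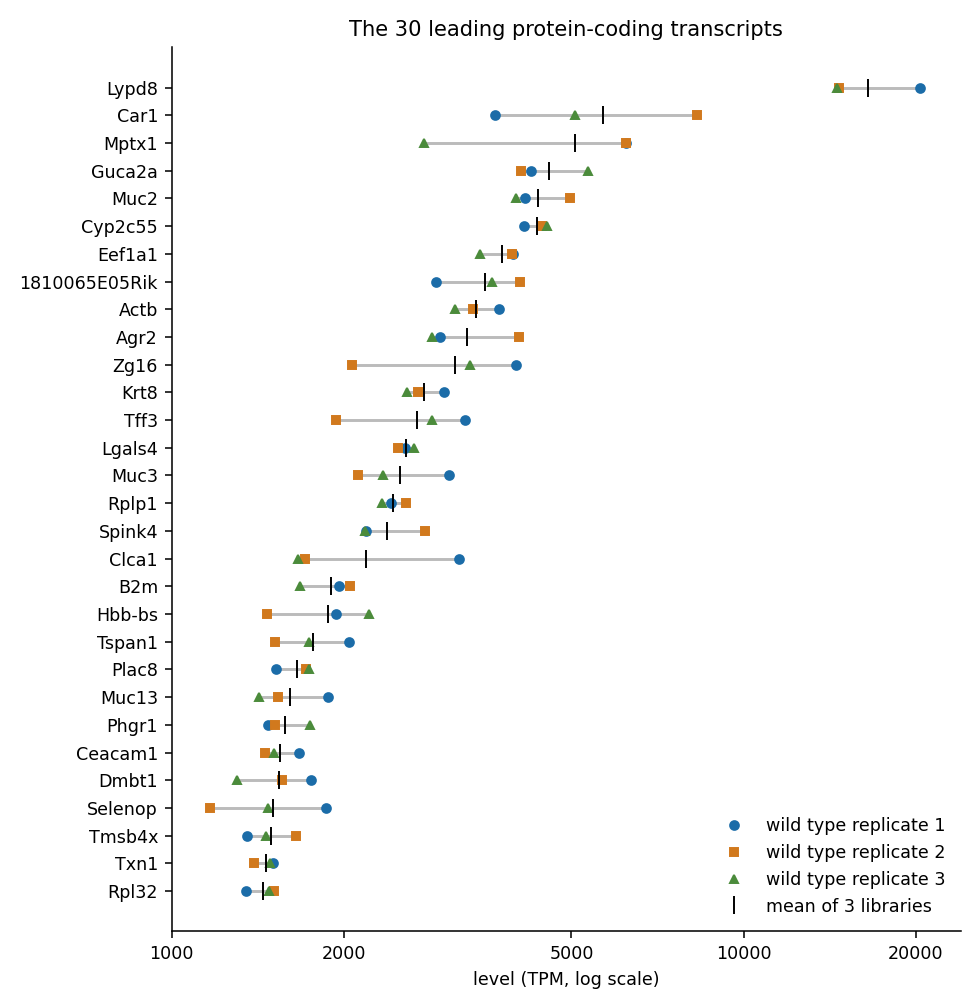
Level (TPM, log scale) of the 30 leading protein-coding genes, with a symbol for each wild type library, a black bar at the mean and a grey line over the range. Lypd8 lies apart at 14548 to 20316 TPM, and Car1, Mptx1, Zg16 and Clca1 have wide ranges while Cyp2c55 and Lgals4 have narrow ones.

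Of the 100 leading protein-coding genes, 22 encoded ribosomal proteins, 10 were on the goblet cell list and 9 on the colonocyte list. The list of general epithelial genes held 5 of them, among these Krt20, which is also on the colonocyte list. None of the 100 was on the lists for crypt stem cells, dividing cells, enteroendocrine cells, tuft cells or T cells. The 83 cytoplasmic ribosomal protein genes held 4.12%, 4.48% and 4.09% of the per-length total (4.23% ± 0.221), with a median of 394 TPM. These genes have many processed copies, and reads that aligned to several places were not counted, so their levels are uncertain and may be low.

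The starts of the leading genes were searched for the letters TATAA, the core of the TATA box, beginning 20 to 40 bases before the RefSeq start on the strand of the gene. The motif was chosen after the sequences had been seen. Of the 100 leading protein-coding genes 78 matched a RefSeq promoter, with 87 start windows, and 16.1% of those windows held the letters. The share was 6.26% of 879 windows of the next 900 protein-coding genes by rank, 2.35% of all windows of detected protein-coding genes and 3.52% of all 32851 windows. Goblet cell genes had the letters in 4 of 17 windows, colonocyte genes in 3 of 25 and ribosomal protein genes in 4 of 71. The 60 bases before the start (RefSeq, GRCm38.p6) are shown with TATAA in capitals for 4 leading genes that hold the letters (Mptx1, Muc2, Cyp2c55 and the broadly expressed B2m) and for 2 that lack them in this window (Guca2a and Eef1a1). The examples do not set tissue-specific against general genes: no window of Agr2, Krt8, Lgals4, Muc3, Muc13, Phgr1 or Ceacam1 held the letters either. Lypd8 had none in the searched range, but its window at chr11:58378972-58379031 (plus strand) holds TATAA less than 20 bases before the start. The windows shown lie at chr1:174330458-174330517 (plus strand) for Mptx1, chr7:141690280-141690339 (plus) for Muc2, chr19:39006959-39007018 (plus) for Cyp2c55, chr2:122147627-122147686 (plus) for B2m, chr4:119637672-119637731 (plus) for Guca2a and chr9:78481725-78481784 (minus) for Eef1a1.
Mptx1: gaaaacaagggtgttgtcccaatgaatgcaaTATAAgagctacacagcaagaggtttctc
Muc2: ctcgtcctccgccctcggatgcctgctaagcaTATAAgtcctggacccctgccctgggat
Cyp2c55: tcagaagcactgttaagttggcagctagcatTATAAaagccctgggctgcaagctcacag
B2m: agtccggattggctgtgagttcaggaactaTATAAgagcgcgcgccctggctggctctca
Guca2a: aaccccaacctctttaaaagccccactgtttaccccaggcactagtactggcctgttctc
Eef1a1: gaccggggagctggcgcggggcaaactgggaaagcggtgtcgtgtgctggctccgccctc

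All 26 genes of the goblet cell list were detected, with a median of 154 TPM. Their levels summed to 29279, 26680 and 25615 TPM in replicates 1, 2 and 3, or 2.72% ± 0.189 of the per-length total and 4.62% of the protein-coding total. Guca2a, Muc2, Agr2, Zg16 and Tff3 were the 5 highest members, and Guca2a and Muc2 each gave about as much of the sum, 16.8% and 16.1%. Guanylin is also made by surface colonocytes, so its placement with goblet cells is not exclusive. Zg16 stood at 4005, 2063 and 3329 TPM and Tff3 at 3257, 1935 and 2857 TPM. Both were lowest in replicate 2, whereas Muc2, Agr2 and Spink4 were highest there, so the secreted goblet products did not share an order over the libraries. Clca1 stood at 3181, 1714 and 1665 TPM and Fcgbp, another major mucus protein, at 1575, 887 and 907 TPM. Both were higher in replicate 1 than in the other libraries.

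Among the antimicrobial goblet products, Ang4, a bactericidal ribonuclease, stood at 962.6, 933.1 and 344.3 TPM and Retnlb, a bactericidal resistin-like protein, at 466.8, 868.5 and 218.0 TPM. Both were lowest in replicate 3. The factors that specify the lineage were lower and steadier. Spdef stood at 118.1, 141.4 and 118.6 TPM and Atoh1 at 58.3, 56.4 and 49.1 TPM. The lowest goblet member was the channel Best2, at 13.1, 3.14 and 7.38 TPM.

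Coding sequences of the short secreted peptides are shown because their abundance marks this tissue and their cysteines define them. The coding sequence of Tff3 (GENCODE M21, between chr17:31125483 and chr17:31129576, minus strand, introns removed) runs to 246 bases with its stop and holds 81 codons. Its 7 cysteine codons, which include those that link the 3 loops of the trefoil fold, are in capitals. The last 48 bases of the Guca2a coding sequence (chr4:119639228-119639275, plus strand) encode the end of the prohormone that is released as guanylin, with its 4 cysteine codons in capitals.
Tff3: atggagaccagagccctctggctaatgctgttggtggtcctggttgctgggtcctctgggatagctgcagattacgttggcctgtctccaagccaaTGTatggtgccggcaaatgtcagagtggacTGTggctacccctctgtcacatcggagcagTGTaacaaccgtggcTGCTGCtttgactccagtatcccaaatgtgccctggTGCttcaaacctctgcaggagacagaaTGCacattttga
Guca2a: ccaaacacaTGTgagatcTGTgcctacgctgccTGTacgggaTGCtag

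The receiving side of guanylin was present as well, at lower levels. All 6 genes listed for guanylate cyclase C signalling were detected. The receptor Gucy2c stood at 227.2, 235.3 and 206.7 TPM (223 ± 14.7), which is far below its ligand in every library. The phosphodiesterase Pde9a averaged 134 ± 6.80 TPM, the kinase Prkg2 37.7 ± 8.73 TPM and Pde5a 28.9 ± 3.25 TPM. Guca2b, which encodes uroguanylin, the related ligand, stood at 26.5, 29.1 and 30.3 TPM, and Guca2a lay above it in every library.

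The absorptive colonocyte list had 27 of 28 members detected, with a median of 339 TPM. Its levels summed to 38882, 33476 and 31905 TPM, or 3.48% ± 0.366 of the per-length total and 5.90% of the protein-coding total. Lypd8 alone gave 47.5% of this sum and Car1 16.3%. Ceacam1, an adhesion molecule of the brush border, stood at 1673, 1459 and 1507 TPM (1546 ± 112), the water channel Aqp8 at 1997, 894 and 1447 TPM (1446 ± 552) and the membrane-bound carbonic anhydrase Car4 at 1871, 1109 and 1353 TPM (1444 ± 389). The ranges of these 3 genes overlapped. Aqp8 and Car4 shared an order over libraries, with replicate 1 highest and replicate 2 lowest. With TMM library factors, which scale libraries on the bulk of genes and are named library factors from here on, 20 of the 27 detected members were highest in replicate 1 and 23 were lowest in replicate 2. Over the 10104 genes used for spread below, 37.9%, 28.1% and 34.1% were highest in replicates 1, 2 and 3 on that scale. The shares lowest were 36.02%, 31.5% and 32.5%, and such counts for other lists stand beside the same shares. Vil1, which encodes villin, the actin bundler of the brush border, varied little, at 548.0, 553.2 and 543.4 TPM.

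The transporters covered chloride, sodium and proton exchange. Clca4a averaged 733 ± 86.4 TPM, the pump subunit Atp1b1 638 ± 118 TPM and the scaffold Slc9a3r1 458 ± 23.1 TPM. The chloride and bicarbonate exchanger Slc26a3 stood at 671.8, 345.1 and 687.9 TPM and the colonic proton pump Atp12a at 359.0, 138.3 and 189.4 TPM. Replicate 2 was lowest for both. Of the epithelial sodium channel, the alpha subunit Scnn1a stood at 114.9, 66.7 and 89.8 TPM, the beta subunit Scnn1b at 10.9, 11.1 and 7.52 TPM and the gamma subunit Scnn1g at 3.75, 0.455 and 1.56 TPM. The 3 subunits did not overlap in level, and Scnn1g was the colonocyte gene that missed detection. In all 23 of 24 measured ion and water transport genes were detected, with a median of 70.6 TPM.

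Genes of short-chain fatty acid use, the main fuel of colonocytes, were detected in 17 of 18 cases with a median of 55.3 TPM. Bsg, the chaperone of the monocarboxylate transporters, averaged 551 ± 57.9 TPM and the transporter Slc16a1 159 ± 36.7 TPM. The oxidation enzymes Acads and Acaa2 averaged 161 ± 21.1 and 120 ± 18.4 TPM. The undetected member was the butyrate receptor Hcar2, at 0.941 TPM.

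All 21 general epithelial genes were detected, with a median of 439 TPM and a sum of 14760, 13166 and 13260 TPM. After Krt8 and Lgals4 came the adhesion molecule Epcam at 1422 ± 186 TPM and the keratins Krt19 at 1268 ± 114 and Krt20 at 1248 ± 75.1 TPM. Transcription factors of gut identity were detected in 23 of 24 cases. The highest were Klf4 (426 ± 34.0 TPM), Elf3 (387 ± 52.1 TPM), Hnf4a (346 ± 29.98 TPM), Vdr (169 ± 7.50 TPM) and Cdx2 (150 ± 19 TPM). Sox2, a foregut factor, had no read, which allows up to 0.262 TPM.

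In 5 gene families few members carried most of the level. The counts detected in each stand beside 12626 of 21510 over all protein-coding genes kept. Of 12 measured mucin genes 8 were detected, and Muc2, Muc3 and Muc13 stood above 1000 TPM in every library. Muc3a averaged 197 ± 29.3, Muc4 62.3 ± 0.927, Muc1 6.95 ± 3.53, Muc20 2.61 ± 0.405 and Muc6 1.77 ± 0.431 TPM. The gastric mucin Muc5ac had no read, which allows up to 0.0502 TPM. The tight junction claudins were led by Cldn7 (570 ± 44.5 TPM) and Cldn3 (486 ± 42.6 TPM), ahead of Cldn4 (172 ± 25.9), Cldn15 (142 ± 36.7), Cldn23 (141 ± 14.7), the pore-forming Cldn2 (71.2 ± 15.4), Cldn8 (65.7 ± 21.2) and Cldn12 (31.8 ± 4.71). Cldn10, Cldn1 and Cldn14 averaged 3.08, 2.09 and 1.36 TPM, and 9 of the 20 measured claudins lay under 1 TPM.

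The other families were as uneven. Of 16 carbonic anhydrases 9 were detected: after Car1 and Car4 came Car2 at 320 ± 53.8 TPM, Car8 at 76.4 ± 25.2, Car9 at 45.7 ± 2.73, Car13 at 26.8 ± 2.34, Car12 at 15.7 ± 3.80, Car11 at 2.63 ± 0.384 and Car14 at 2.28 ± 0.132 TPM. Among aquaporins Aqp8 stood above Aqp4 (67.6 ± 20.2 TPM) and Aqp1 (60.9 ± 12.6 TPM), whose ranges overlapped. Aqp11 averaged 2.79 ± 0.465 and Aqp12 1.07 ± 0.464 TPM. Aqp3, a water and glycerol channel, averaged 0.771 ± 0.304 TPM from 5, 12 and 7 reads. The keratins of simple epithelium were Krt8, Krt19 and Krt20, then Krt18 at 511 ± 38.6, Krt7 at 56.6 ± 13.9 and Krt23 at 9.24 ± 1.38 TPM.

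**Figure D3:**
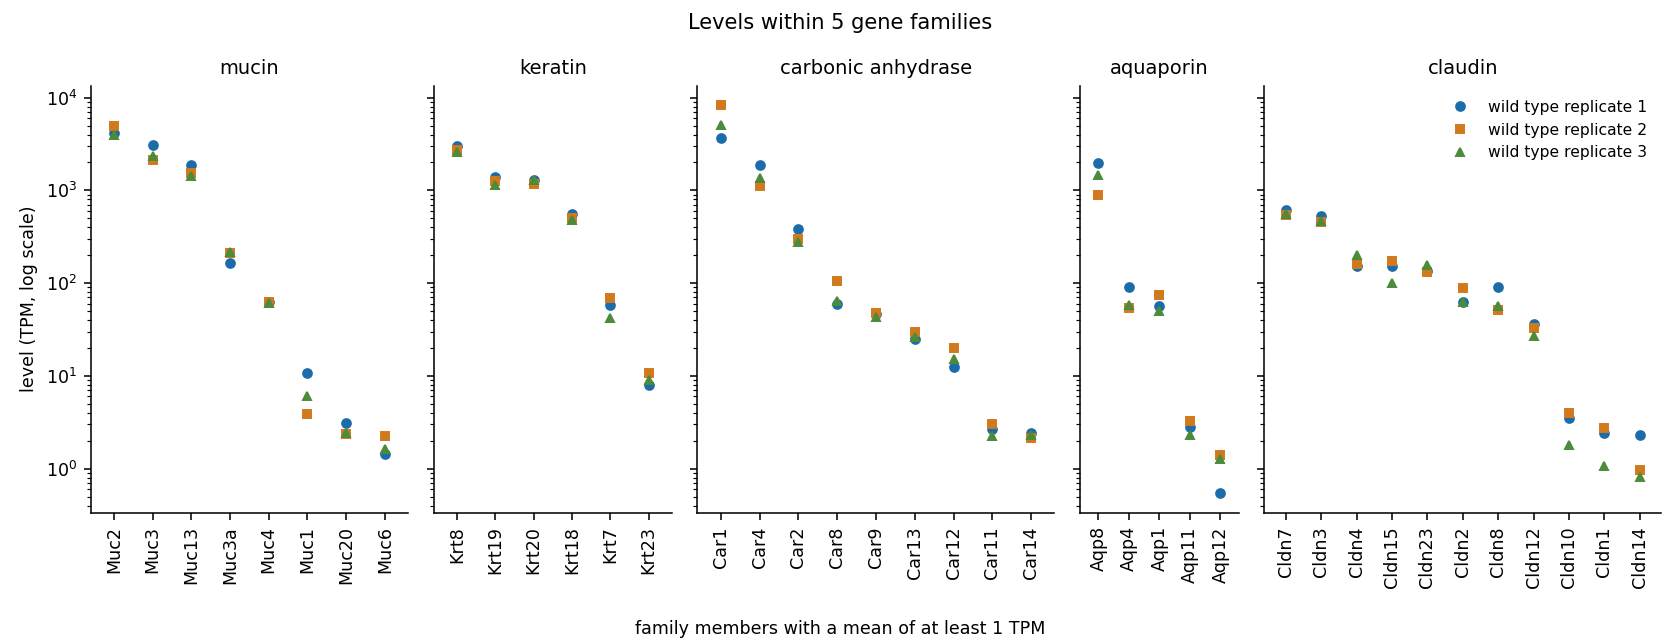
Level (TPM, log scale) of each member with a mean of at least 1 TPM in 5 gene families, with a symbol for each wild type library. Muc2, Cldn7, Car1, Aqp8 and Krt8 lead their families, and the last members shown lie more than 2 powers of 10 below the first in every family.

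Genes typical of either end of the colon were both detected. Of 15 measured proximal colon genes all were detected, led by Cyp2c55, the fatty acid binding protein Fabp2 (989, 1245 and 1357 TPM), Gsdmc4 (752.8, 403.5 and 294.8 TPM), Sycn (762.8, 241.0 and 360.6 TPM) and Mettl7b (341 ± 43.4 TPM). Of 15 measured distal genes 11 were detected, led by Aqp8, Car4 and Retnlb and then B4galnt2 (434 ± 39.9 TPM) and Wfdc2 (151 ± 56.2 TPM). The distal factor Hoxb13 stood at 131.5, 50.7 and 68.1 TPM, and Hoxb6, which lies further forward in its cluster, at 25.9, 65.7 and 42.4 TPM. Replicate 1 was highest for Hoxb13 and lowest for Hoxb6, and replicate 2 was the reverse. The summed lists did not part in this way. The distal sum (5257, 3556 and 3731 TPM) and the proximal sum (7868, 7525 and 7576 TPM) were both highest in replicate 1 and lowest in replicate 2. Replicates 2 and 3 lay close in both sums, so their order was not resolved. Cyp2c55 gave 56.95% of the proximal sum, and Aqp8 and Car4 gave 34.6% and 34.5% of the distal sum. The sums therefore say little of the other members. By gene with library factors, 8 of the 15 proximal members were lowest in replicate 1 and 3 in replicate 2. The shares over the 10104 genes used for spread were 36.02% and 31.5%. Of the 11 detected distal members 7 were highest in replicate 1 and 7 lowest in replicate 2, against shares of 37.9% and 31.5%. The stretch of colon washed for each library is not given in the sources used here, and the part of such a difference in the spread between libraries was not tested.

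All 20 genes of the small intestine list were detected, with a median of 35.3 TPM, above the 11.7 TPM of all detected genes. The C-type lectin Reg3b stood at 357.9, 886.3 and 825.5 TPM and Reg3g at 42.7, 84.9 and 117.6 TPM. The peptide transporter Slc15a1 stood at 210.8, 78.4 and 113.4 TPM, and Rbp2 and Fabp1 averaged 128 ± 27.2 and 81.2 ± 24.5 TPM. Members further down included Apoa4 (17.0 TPM), Sis (15.7), Lct (3.89), Treh (3.19), Apoc3 (2.38) and Gata4 (1.95). Whether colon cells themselves expressed the genes of this list cannot be told from bulk RNA. Of the 20 genes 12 were highest in replicate 3 and 16 lowest in replicate 1, against 9.81% and 31.4% of the 10104 genes used for spread. With library factors these numbers were 15 and 16.

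The lists of rarer epithelial cell types summed to a small fraction of the goblet and colonocyte sums. The exception was the deep crypt secretory list, at 5711 ± 2061 TPM. In bulk RNA fewer cells of a type and less RNA per cell cannot be told apart. The crypt stem cell list was detected in full (17 of 17), with a median of 14.6 TPM and a sum of 494.2, 517.6 and 475.4 TPM. Its 5 highest members were Prom1 (195 ± 14.1 TPM), Slc12a2 (64.6 ± 7.36), Lrig1 (54.7 ± 5.82), Cd44 (32.2 ± 6.80) and Rnf43 (19.9 ± 3.83), which are not restricted to stem cells. The narrower markers were low but even: Lgr5 stood at 2.65, 3.07 and 2.85 TPM from 138, 185 and 170 reads, and Ascl2 at 2.43, 2.62 and 2.23 TPM. Olfm4 stood at 9.44, 11.3 and 23.0 TPM, highest in replicate 3.

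The dividing cell list was also detected in full (20 of 20), with a median of 14.3 TPM and a sum of 488.6, 582.8 and 469.6 TPM. Pcna averaged 80.5 ± 7.06, the mitotic kinase Plk1 79.8 ± 17.1, Mki67 54.6 ± 7.81, Stmn1 52.0 ± 6.48 and Top2a 33.8 ± 5.28 TPM. With library factors 15 of the 20 were highest in replicate 2. The deep crypt secretory list had 9 of 10 members detected, but Mptx1 gave 88.8% of its sum of 6874, 6927 and 3332 TPM. The other leading members were Cd24a (294 ± 60.3 TPM), Reg4 (254.4, 236.0 and 230.1 TPM), Hepacam2 (60.2 ± 6.40) and Kit (24.9 ± 3.09), and Ptger2 was undetected at 0.406 TPM. The low level of Mptx1 in replicate 3 had no counterpart of that size in Reg4.

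Enteroendocrine genes were detected in 20 of 26 cases, with a sum of 1053, 1174 and 821.6 TPM. The granins Chgb (352.7, 415.2 and 259.2 TPM) and Chga (264.6, 288.2 and 198.8 TPM) led, both highest in replicate 2 and lowest in replicate 3. Among hormones secretin (Sct) averaged 129 ± 13.1 TPM, peptide YY (Pyy) 50.7 ± 12.7, neurotensin (Nts) 48.7 ± 11.99, proglucagon (Gcg) 45.9 ± 5.76 and Insl5 28.3 ± 11.1 TPM, and Tph1, which makes serotonin, averaged 49.4 ± 10.7 TPM. Pyy, Tph1, Nts and Gcg overlapped in range. Cholecystokinin (Cck) averaged 1.15 TPM from 9, 10 and 6 reads. The progenitor factor Neurog3 averaged 0.850 TPM from 6, 7 and 11 reads, and Scg2 and Pax6 also lay under 1 TPM.

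Tuft cell genes were detected in 16 of 20 cases but summed to only 154.8, 155.0 and 118.1 TPM. Rgs13 averaged 29.1 ± 6.53 TPM, Sh2d6 15.8 ± 2.54, the taste channel Trpm5 11.4 ± 1.08 and Ptgs1 10.9 ± 3.998 TPM. The master factor Pou2f3 stood at 2.10, 3.69 and 2.45 TPM and Dclk1 at 6.37, 7.36 and 4.89 TPM. Il25 had 3, 1 and 1 reads and Sucnr1 1, 1 and 4, and Gfi1b and Gng13 also lay under 1 TPM. Paneth cells belong to the small intestine, and their genes were low and uneven, at 122.5, 138.1 and 232.3 TPM in sum with 8 of 11 detected. The defensins Defa24 (32.9, 43.0 and 77.3 TPM) and Defa30 (29.2, 32.5 and 55.4 TPM), Gm14851 (19.6, 16.0 and 40.2 TPM) and lysozyme Lyz1 (15.4, 12.8 and 22.9 TPM) were highest in replicate 3, and Itln1 was even at 17.6 ± 1.46 TPM. Defensin genes are near-identical copies, so single members are uncertain, and Defa5, Defa22 and Defa21 lay under 1 TPM.

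**Figure D4:**
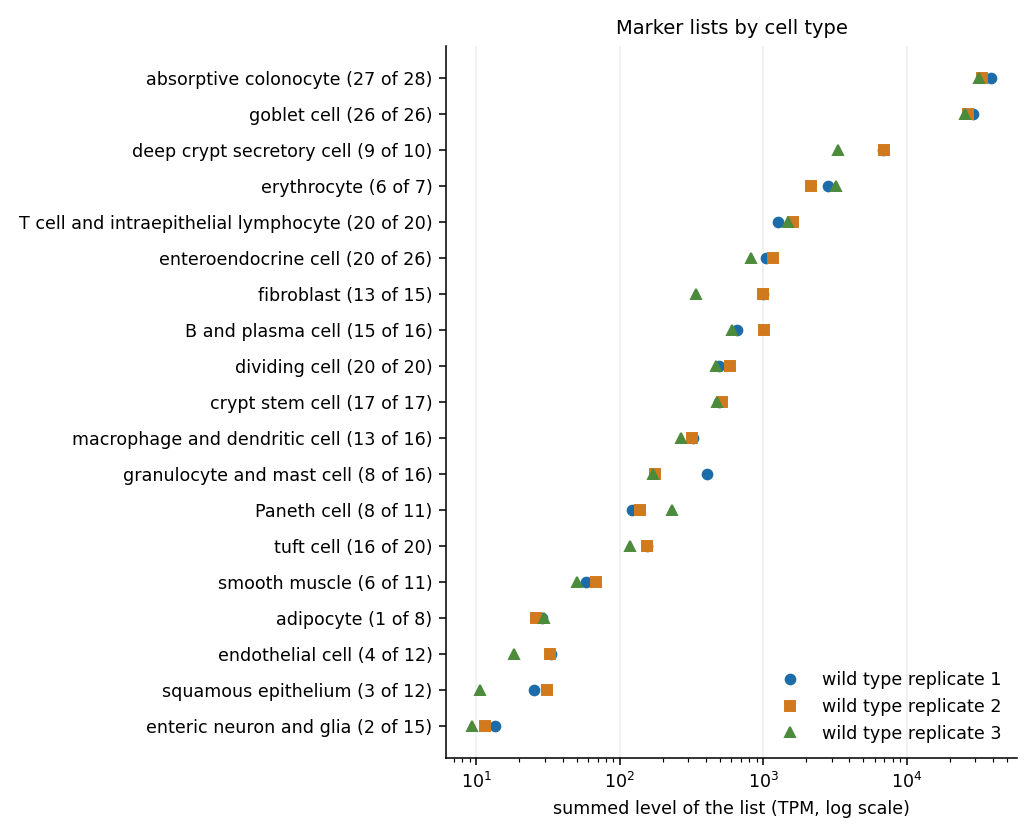
Summed level (TPM, log scale) of 19 cell type marker lists, with a symbol for each wild type library and, in brackets, the members detected of those listed. Colonocyte and goblet sums lie at 25615 TPM or above and the rarer epithelial types from 118.1 to 6927 TPM. In the fibroblast, deep crypt secretory, Paneth, B and plasma cell, endothelial, squamous and granulocyte sums a single library lies well away from the others. The granulocyte sum is mostly Ly6g.

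Markers of cells other than epithelium were present too. All 20 T cell and intraepithelial lymphocyte genes were detected, with a median of 42.5 TPM and a sum of 1269, 1622 and 1491 TPM. The granzymes Gzma (355.1, 474.1 and 472.9 TPM) and Gzmb (172 ± 24.7 TPM) led with the chemokine Ccl5 (172 ± 38.2 TPM), Cd7 (110 ± 15.8) and Trbc2 (109 ± 11.7). Cd8a stood at 40.4, 54.0 and 42.5 TPM and Cd4 at 1.86, 2.32 and 2.09 TPM, so Cd8a lay above Cd4 in every library. B and plasma cell genes were detected in 15 of 16 cases and summed to 654.5, 1007 and 611.2 TPM. Cd74 stood at 189.3, 341.5 and 153.1 TPM, Igkc at 78.5, 147.7 and 82.6 TPM and Ighm at 62.5, 119.6 and 71.7 TPM. Each was highest in replicate 2, as were 13 of the 15 detected genes of this list with library factors. Xbp1 (144 ± 12.6 TPM) and Sdc1 (99.9 ± 3.72 TPM), which secretory and other epithelial cells also express, were even, and Tnfrsf17, a plasma cell receptor, had 1, 0 and 1 reads.

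Macrophage and dendritic cell genes summed to 325.0, 317.3 and 269.1 TPM with 13 of 16 detected. Lyz2 gave most of it at 181 ± 23.0 TPM, ahead of Tyrobp (41.3 ± 4.14), Cd14 (26.8 ± 4.76), C1qa (8.82 ± 2.13) and C1qb (8.78 ± 1.90). The dendritic cell genes Flt3 and Xcr1 lay under 1 TPM. Of 16 granulocyte and mast cell genes 8 were detected, and Mpo, Elane and Prg2 had no read, which allows up to 0.158, 0.548 and 0.643 TPM. Ly6g stood at 351.0, 131.9 and 116.7 TPM and made up most of that list's sum of 403.9, 177.3 and 171.3 TPM. The list members Csf3r and Cxcr2 averaged only 0.972 and 0.290 TPM. The sum therefore stood mainly for Ly6g, and whether Ly6g came from granulocytes was not tested. The neutrophil genes S100a8 (2.84, 6.37 and 6.70 TPM) and S100a9 (8.68, 11.1 and 12.5 TPM) were lowest where Ly6g was highest. The mast cell proteases Mcpt1 and Mcpt2 averaged 17.8 ± 4.73 and 7.71 ± 1.34 TPM.

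Fibroblast genes were detected in 13 of 15 cases and summed to 996.6, 989.9 and 341.1 TPM. Dcn stood at 261.8, 251.9 and 86.7 TPM, Col3a1 at 188.2, 186.0 and 60 TPM and Vim at 129.8, 139.8 and 54.5 TPM. Col6a1 (121.0, 131.2 and 36.0 TPM) and Sparc (116.1, 115.1 and 33.5 TPM) had the same shape, with replicate 3 far below the others. With library factors 11 of the 13 detected were lowest in replicate 3. Pdgfra lay at 0.357 TPM. Markers of the deeper layers of the gut wall were low. Smooth muscle genes summed to 59.0 ± 9.01 TPM with Tagln at 19.2 ± 2.68, Mylk at 16.4 ± 2.29, Myh11 at 0.436 TPM and no read of Lmod1. Endothelial genes summed to 33.0, 32.9 and 18.2 TPM, led by Esam (13.1 ± 6.21) and Pecam1 (5.33 ± 0.731), with Cdh5 at 0.220 TPM. Neuron and glia genes summed to 11.5 ± 2.10 TPM, led by Snap25 (3.97 ± 0.826).

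Erythrocyte genes were detected in 6 of 7 cases and summed to 2829, 2167 and 3221 TPM. Hbb-bs stood at 1937, 1470 and 2214 TPM, Hba-a1 at 344.1, 286.5 and 391.4 TPM, Hbb-bt at 276.5, 209.5 and 300.4 TPM, Hba-a2 at 221.7, 164.4 and 260.1 TPM and the haem enzyme Alas2 at 44.9, 34.5 and 51.7 TPM. These genes kept a common order over libraries, with replicate 3 highest and replicate 2 lowest. The alpha and beta chains are near-identical pairs, so the split within each pair is uncertain. Of 12 squamous genes 3 were detected, and Krt5 had no read, which allows up to 0.245 TPM, while Krt14 stood at 18.6, 24.8 and 5.29 TPM. Of 8 adipocyte genes only Cidec was detected (25.5 ± 1.90 TPM), and Lep had no read.

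Defence genes were led by Lypd8, Zg16 and the IgA transporter Pigr (1814, 1318 and 1174 TPM), followed by the serum amyloid Saa1 (1306, 507.0 and 779.3 TPM) and Ang4, with 21 of 24 detected. Lcn2 had 4, 2 and 3 reads (0.209 ± 0.0859 TPM), Camp lay under 1 TPM and Bpifa1 had no read. Of 20 pattern recognition receptors 14 were detected, with a median of 6.32 TPM. Nlrp6 averaged 86.8 ± 10.4 TPM, the RNA sensor Ifih1 64.9 ± 5.20, Nlrc4 48.1 ± 2.52, Tlr1 33.8 ± 2.47 and Tlr2 31.5 ± 1.93 TPM. All 15 genes of antigen presentation were detected, with H2-K1 at 1064 ± 149 and H2-D1 at 887 ± 109 TPM after B2m.

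Immediate early genes, which switch on within minutes of a stimulus to a cell, were detected in 17 of 19 cases, with a sum of 2401 ± 442 TPM. Fos stood at 458.9, 618.0 and 810.7 TPM and Jun at 303.0, 328.9 and 448.4 TPM, and Klf6, Btg2 and Junb averaged 319 ± 23.0, 247 ± 25.7 and 145 ± 10.02 TPM. With library factors 14 of the 17 were highest in replicate 3 and 13 lowest in replicate 1. Of the heat shock genes all 12 were detected. Hspa8 stood at 541.0, 418.1 and 359.8 TPM and Hsp90ab1 at 343 ± 53.5 TPM, ahead of Hspe1 (121 ± 12.8), Hspd1 (97.2 ± 8.72) and Hsp90aa1 (90.8 ± 22.4). The strongly inducible Hspa1a and Hspa1b averaged 2.36 ± 0.622 and 12.8 ± 2.81 TPM. They are near-identical copies and reads without a unique place were not counted, so both are uncertain and may be low. With library factors 9 of the 12 were highest in replicate 1, against 37.9% of the 10104 genes used for spread.

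The trefoil peptides and Lingo proteins, among them the gene the study's design turns on, were very unequal in level. Against Tff3 at 2683 ± 678 TPM, the gastric trefoil peptide Tff2 stood at 5.73, 5.53 and 5.60 TPM and Tff1 had 0, 1 and 0 reads. Lingo2, a leucine-rich repeat membrane protein, had 0, 7 and 0 reads in replicates 1, 2 and 3, or a mean of 0.0478 TPM, below the 0.0650 TPM that a count of 0 allows. At this depth the transcript was therefore seen in a single library. Lingo1 had 9, 3 and 1 reads and Lingo3 3, 3 and 1, and Lingo4 was the highest of the family at 2.11, 1.35 and 1.37 TPM. The growth factor receptor Egfr stood at 25.8, 20.1 and 21.4 TPM.

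The spread over libraries exceeded what counting alone would give. Over the 10104 genes with a mean of at least 10 CPM (a count scaled to the kept reads of its library, not divided by length) the median coefficient of variation (CV, SD over mean) of the TPM was 10.4%, and 422 genes were above 30%. Among genes of 10 to 100 CPM the median CV was 10.95% against 4.945% from counting, among genes of 100 to 1000 CPM 8.71% against 2.12%, and among the 53 genes above 1000 CPM 14.0% against 0.662%. The most abundant genes thus varied more than those of middle level, with 8 of the 53 above 30%. A dispersion fitted over 15956 genes with an intercept alone gave a common biological CV of 13.4%. A comparison of the counts of each pair of libraries gave a chi-square of 11.6 to 15.9 for each degree of freedom, well beyond sampling noise, and none was taken as a repeat deposit.

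On the TPM scale 58.6% of the 10104 genes were lowest in replicate 3, the library with the most Rn7sk. With library factors 36.02%, 31.5% and 32.5% were lowest in replicates 1, 2 and 3 and the median CV fell to 8.47%. The genes of wide spread did not even out in that way: of 363 above 30% with library factors, 65.8% were highest in replicate 1 and 53.2% were lowest in replicate 3.

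The 12 genes with the largest CV ranged from 63.4% to 89.98%, and 9 of them were among the 12 widest with library factors as well. Egln3, an oxygen-sensing prolyl hydroxylase, stood at 103.8, 24.9 and 24.0 TPM, Fxyd4, a regulator of the sodium pump, at 37.5, 9.04 and 10.6 TPM, and Slc46a1, a folate transporter, at 25.3, 7.84 and 8.33 TPM. Adamts9 (2.96, 0.994 and 1.01 TPM) and Ly6g had the same shape, with replicate 1 far above an even pair. Steap4 (26.8, 12.5 and 3.66 TPM), Pla2g4c (11.98, 6.85 and 1.47 TPM) and the collagen gene Col14a1 (44.7, 31.6 and 8.62 TPM) were highest in replicate 1 and lowest in replicate 3. The B cell genes Ms4a1 (3.92, 10.4 and 3.65 TPM) and Bank1 (1.32, 5.43 and 2.92 TPM) were highest in replicate 2 with Retnlb, and the lectin Reg1 (18.7, 22.8 and 70.9 TPM) was highest in replicate 3. The summed fibroblast, B cell and small intestine lists above had the same highest and lowest libraries as Col14a1, Ms4a1 (a member of the B cell list) and Reg1, and their part in the spread of these genes was not tested.

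The 6 genes with the smallest CV were Papss2 (235.0, 235.1 and 235.7 TPM), Nfkb2, Arhgef5, Ormdl1, Arap2 and Apaf1, at 0.151% to 0.428%. Each lay under its own counting CV of 1.43% to 6.14%, so such closeness is below what the reads can resolve. With library factors their CVs were 6.07% to 6.78%.

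**Figure D5:**
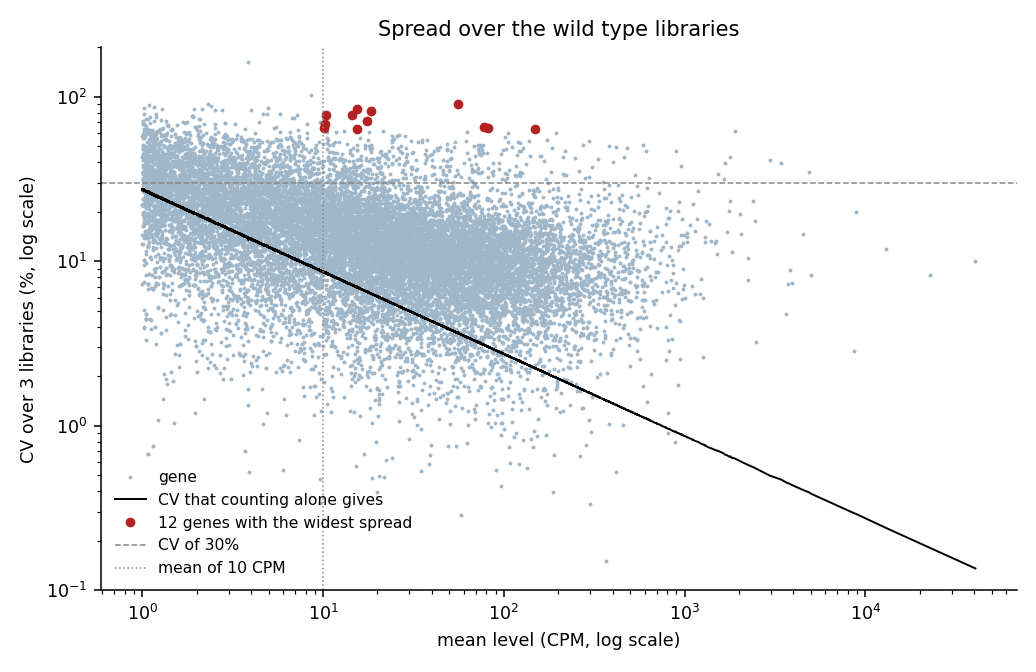
CV over the 3 wild type libraries (%, log scale) against mean level (CPM, log scale) for each gene, with the counting CV as a solid line, broken lines at a CV of 30% and a mean of 10 CPM, and the 12 widest named genes in red. Most genes lie above the counting line, and Egln3, with a CV of 89.98%, is the highest red point.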

How the data were processed

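Whole-number read counts per gene, not normalized, were deposited by the authors in a table with 5 closing summary lines. Trimmomatic 0.39, STAR, HTSeq, DESeq2 and build GRCm38 are named in the submitters' processing notes. Per the labels' protocols the libraries were stranded total RNA with ribosomal RNA removed. Which annotation was counted, and whether strand was used, is not stated in the labels or headers, and overlapping genes are therefore uncertain. The summary lines were dropped. Of all lines, 18.5% to 22.1% were reads in no feature, 1.23% to 1.28% ambiguous reads and 36.5% to 36.9% non-unique alignments. Reads without a unique place were not counted, which lowers near-identical genes.

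Of 46078 gene rows 45229 matched GENCODE M21 (GRCm38), which gave symbols, classes, positions and exon lengths. TPM was computed here from the count and the union of exons, without mitochondrial and rRNA-like genes (Gm26917, Gm42418 and class rRNA) and genes under 200 bases of exon. A count of 0 allows 3 reads per library, and the TPM this allows is a mean over the libraries and covers counting error only. With 1 group there was no test and no p-value. The dispersion was fitted with edgeR 4.0.16 in R 4.3.3 and tested on simulated data. DESeq2 1.42.0 gave alternative size factors. Python 3.11.15, numpy 2.4.6, pandas 2.3.3 and matplotlib 3.10.9 were used.

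Genes named are the 30 highest by mean TPM, the 5 highest of each of 39 gene lists and members under 1 TPM that define the type, family members at 1 TPM or more, the 12 widest and 6 tightest of at least 10 CPM, and the trefoil and Lingo list. The remaining genes named, such as hormones, narrow stem and tuft markers, Hox genes, Guca2b, Hspa1a and Hspa1b, are list members chosen after their values were seen. Some genes that the rule takes are not reported here. The members and lists were chosen with earlier results of these data known. Alternatives were other lengths, gene totals, scalings, a minimum of 10 reads and leaving out each library.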

Additional observations from a re-analysis of the deposited data

How the results depend on the processing

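No paired analysis was possible because only 1 group is described and its results come from no test. Shares depended on the total more than on the libraries. The goblet share of 2.72% became 3.23% with the longest transcript as length, 2.91% with no length correction, 4.62% of protein-coding genes, 2.49% with no minimum length and 1.09% with mitochondrial and rRNA-like genes kept. The colonocyte share of 3.48% became 3.07% with no length correction, 5.90% of protein-coding genes and 1.39% with mitochondrial and rRNA-like genes kept. The number of genes for 50% of the total, 61.3 on average, became 123 with the longest transcript, 910.3 with no length correction, 550.3 for protein-coding genes and 2.33 with mitochondrial and rRNA-like genes kept. Of the 30 leading genes 18 remained with no length correction and 19 with mitochondrial and rRNA-like genes kept, and the 422 genes of wide spread became 230 under the latter. In that setting the minimum of 10 CPM was taken over the larger total, so fewer genes entered the count. The causes were not tested beyond the change of total or length itself. TMM factors, DESeq2 size factors and the minimum of 10 reads moved none of these 7 results by more than the spread or 1.5 times. Leaving out each library in turn gave 2.62% to 2.80% for goblet, 3.27% to 3.62% for colonocyte, 54 to 74 genes for 50%, 15956 to 16308 genes detected, 369 to 521 of wide spread and 28 to 29 of the 30 leading genes. Of 19 summed cell type levels, 12 moved by over 1.5 times with no length correction (0.253 to 3.06 times the value given), 17 with protein-coding genes only (all 19 at 1.19 to 1.71 times), and all 19 with mitochondrial and rRNA-like genes kept (0.395 to 0.408 times). The minimum of 10 reads took the neuron and glia sum from 11.5 to 6.91 TPM. Leaving out a library moved the sums to between 0.695 and 1.28 times, and the granulocyte sum of 250.8 TPM became 174.3 TPM without replicate 1. Genes under 1 TPM rest on few reads, so their order was not resolved at this depth.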
